A study of Mus musculus with 12 samples.

Results

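The EGF family ligands and receptors studied here were 9 genes, chosen by name: the ligand genes Egf, Tgfa, Areg, Ereg and Hbegf, the receptor genes Egfr, Erbb2 and Erbb3, and Errfi1, the gene of a feedback inhibitor. Probe sets annotated to 1 of these genes alone measured 8 of the 9 genes with 17 probe sets, among 17097 genes measured in all. Areg was not analysed here. Untreated cells of the mouse small intestine had been isolated as 6 populations: Mex3a-high, Mex3a-low and Mex3a-negative cells, each at a high and at a low Lgr5 level. The product of Mex3a binds RNA, and Lgr5 is a receptor gene that marks stem cells at the crypt base. The 2 biological replicates, MR793 and MR820, each gave every population, and RNA of 2000 cells per sample was amplified for 22 cycles and measured on 1 Affymetrix array, which gives 12 arrays. With n = 2 per population the number of arrays limits the precision of every value. The labels do not say whether a replicate was 1 animal or a pool, nor give strain, age or the reporters used to isolate the cells, so p-values measure the spread between these 2 preparations.

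The ligands of this family are made as membrane proteins and are released by shedding. Most of them bind EGFR, a receptor tyrosine kinase that pairs with itself or with ERBB2, which has no known soluble ligand, or ERBB3, which binds neuregulins and signals mainly through PI3K. Active receptors drive the Ras-ERK and PI3K-Akt cascades, and ERK activity in turn induces Hbegf and Errfi1 in many cell types, the first a ligand and the second a brake on the receptor kinase. In the intestine, EGF receptor signalling supports proliferation of crypt stem cells, and neighbouring Paneth and stromal cells supply ligands.

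Values are RMA expression levels on the log2 scale, on which a difference of 1 is 2-fold. The epithelial genes Epcam (lowest 11.97, median 12.35, highest 12.43 over the 12 arrays) and Vil1 (10.20, 10.82 and 11.39) and the crypt gene Olfm4 (12.50, 12.82 and 13.08) were high on every array. Lgr5 was 2.61 ± 0.23 (log2 difference ± SE, limma adjusted p = 0.000843) higher in Lgr5-high than in Lgr5-low cells over the Mex3a gates, and Mex3a did not separate its gates (0.29 ± 0.19, adjusted p = 0.505, and 0.12 ± 0.19, adjusted p = 1.00, for Mex3a-high against Mex3a-negative at high and low Lgr5). The population means of Mex3a were 5.52 to 6.09, within the 4.05 to 8.22 of 16 genes of other organs described below. Its values therefore say little about how well the Mex3a gates were sorted. A single array, that of Mex3a-high Lgr5-high cells in MR793, stood apart, with a correlation of 0.896 to 0.916 with the other arrays, against 0.971 to 0.996 among the other 11. Most results that rest on it are therefore also given without it. Without it, Lgr5 differed by 2.82 between the Lgr5 gates, and Mex3a by 0.03 between Mex3a-high and Mex3a-negative Lgr5-high cells. In RNA of sorted cells, fewer cells of a type and less RNA per cell cannot be told apart.

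The family differed in how strongly its genes were detected. As a guide to the level of a probe set without signal, 16 genes of other organs averaged 4.05 to 8.22, with a median of 5.37. Erbb3 averaged 10.41 over the 12 arrays, Hbegf 9.78, Egfr 9.03 and Errfi1 8.70, all above the highest of those 16 genes. Erbb2 averaged 7.83 and Tgfa 7.78, above all of them but 1. Egf averaged 5.54 and Ereg 4.18, within the range of genes of other organs, so little can be read from either of these 2 ligands. The probes of different genes bind with different strength, and no order of abundance among the genes was drawn.

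**Figure D1:**
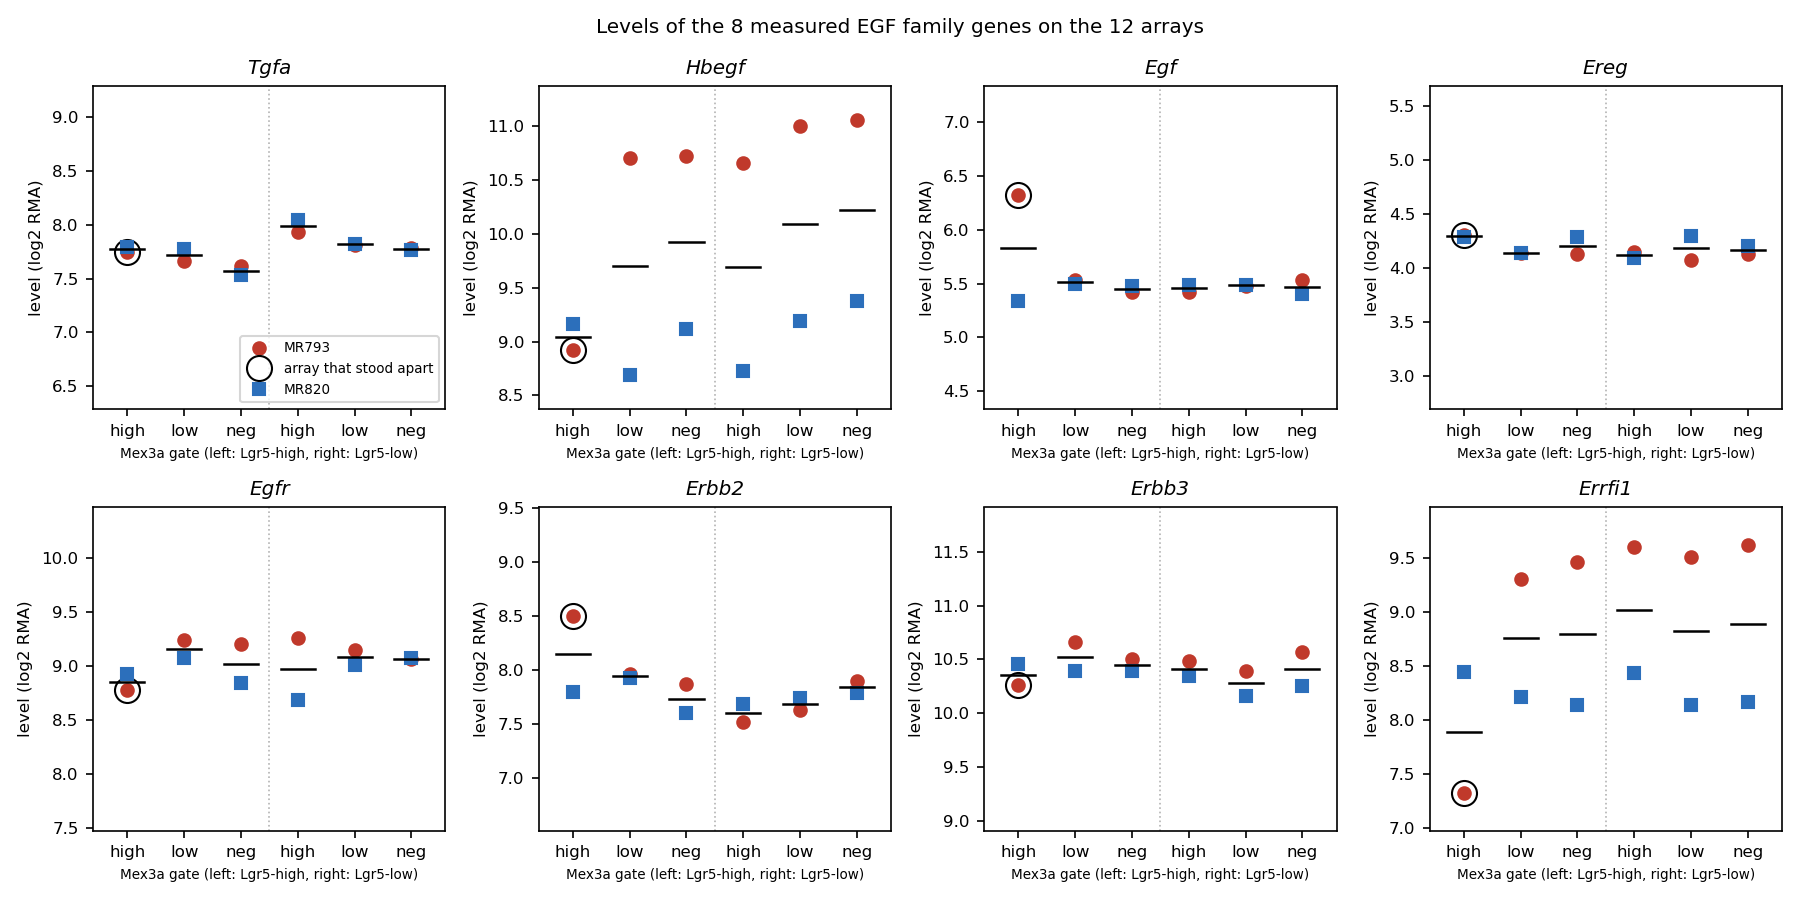
Level (log2 RMA, vertical axes all 3 log2 units or more) of the 8 measured genes in each population, Lgr5-high left and Lgr5-low right of the dotted line, with circles for MR793, squares for MR820, bars for the mean of 2 arrays and a ring around the array that stood apart. Hbegf and Errfi1 separate by replicate in 5 of 6 populations, while the other 6 genes lie closer together. Of these 6, Egf (6.33) and Erbb2 (8.50) are clearly set off on the ringed array.

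Hbegf, the gene of heparin-binding EGF-like growth factor, varied most, and it varied between the biological replicates rather than between the sorted populations. At high Lgr5 it was at 8.92 in MR793 and 9.16 in MR820 in Mex3a-high cells, at 10.71 and 8.69 in Mex3a-low cells and at 10.72 and 9.12 in Mex3a-negative cells. At low Lgr5 it was at 10.66 and 8.72 in Mex3a-high cells, at 11.005 and 9.19 in Mex3a-low cells and at 11.06 and 9.38 in Mex3a-negative cells. The 5 MR793 arrays other than the one that stood apart were all above the 6 MR820 arrays, and only the Mex3a-high Lgr5-high one lay among those of MR820. MR793 minus MR820 was 1.60 to 2.02 in the 5 other populations, with a mean of 1.81 ± 0.17 (SD over 5 population pairs), and -0.24 in the Mex3a-high Lgr5-high pair. A further Hbegf probe set, 1418350_PM_at, gave 1.66 to 2.02 with a mean of 1.88 in the same 5 pairs, and 0.60 in the sixth pair, which holds the array that stood apart.

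Errfi1 showed the same split at a smaller size. It encodes MIG6, which binds the EGF receptor kinase domain and shuts the receptor down. At high Lgr5 it was at 7.33 in MR793 and 8.44 in MR820 in Mex3a-high cells, at 9.31 and 8.21 in Mex3a-low cells and at 9.47 and 8.14 in Mex3a-negative cells. At low Lgr5 it was at 9.61 and 8.44 in Mex3a-high cells, at 9.51 and 8.13 in Mex3a-low cells and at 9.62 and 8.17 in Mex3a-negative cells. The 5 other MR793 arrays again lay above all 6 MR820 arrays, while the array that stood apart was the lowest of the 12. MR793 minus MR820 was 1.09 to 1.45 in the 5 populations, with a mean of 1.28 ± 0.15 (SD over 5 population pairs), and -1.12 in the Mex3a-high Lgr5-high pair. Over the 12 arrays the levels of Hbegf and Errfi1 correlated at r = 0.909, and at 0.946 over 11 arrays without that array, as a description of arrays that come from only 2 preparations.

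Promoter windows of 6 of the 9 genes were found in the RefSeq promoter table (GRCm38.p6), each 250 bases before to 50 bases after an annotated start. Those of Errfi1, on the plus strand of chromosome 4, are shown because it is the member moving with Hbegf whose windows can be given. They were searched on both strands for TGACGT, the core of the cAMP response element, TGANTCA, the AP-1 site, and TATAAA, the TATA box, the elements common in promoters of rapidly induced genes, and matches are in capitals.
Errfi1 chr4:150853546-150853845: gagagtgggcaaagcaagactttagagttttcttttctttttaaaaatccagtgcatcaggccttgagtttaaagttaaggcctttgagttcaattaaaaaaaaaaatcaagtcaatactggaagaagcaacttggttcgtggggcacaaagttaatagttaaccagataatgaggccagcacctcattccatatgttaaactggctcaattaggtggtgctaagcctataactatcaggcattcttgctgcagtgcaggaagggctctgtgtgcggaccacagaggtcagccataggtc
Errfi1 chr4:150854820-150855119: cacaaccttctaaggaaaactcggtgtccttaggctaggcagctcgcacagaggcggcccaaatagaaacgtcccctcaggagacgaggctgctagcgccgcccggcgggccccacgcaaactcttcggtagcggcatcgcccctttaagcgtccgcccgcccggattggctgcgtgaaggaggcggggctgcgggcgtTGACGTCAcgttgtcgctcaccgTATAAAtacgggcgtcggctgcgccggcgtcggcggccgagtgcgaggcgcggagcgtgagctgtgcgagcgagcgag
The first window held none of the 3 motifs. In the second, TGACGT began 51 bases before the start on the plus strand and its overlapping copy on the other strand began 49 bases before it, and TATAAA began 28 bases before it. Among the 32851 windows in the table, 7.51% held TGACGT, 7.81% TGANTCA and 13.6% TATAAA. The window of Areg also held TGACGT and TATAAA, and those of Egf, Tgfa, Egfr and Erbb2 held none of the 3 motifs. A match is a description of these letters and does not show that a factor binds there.

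Such a difference between the replicates was rare among all genes. Over the same 5 populations 78 of 17097 genes (0.456%) were more than 2-fold higher in MR793 on average, and Hbegf and Errfi1 are 2 of them. In each of the 5 populations taken singly, 17 genes (0.0994%) were more than 2-fold higher, again with both among them. Hbegf had the 9th and Errfi1 the 33rd largest mean difference. This comparison was added after the values were seen, has 1 preparation on each side and therefore carries no test. The array strip does not separate the replicates in 2 of the 5 pairs: within strip 1 the Mex3a-low Lgr5-high pair differed by 2.02 for Hbegf and 1.09 for Errfi1, and within strip 3 the Mex3a-negative Lgr5-low pair by 1.68 and 1.45.

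Genes that respond to tissue dissociation and other acute stress differed between the replicates in the same direction as Hbegf and Errfi1. So did genes outside the list used for that response. All 10 measured genes of a dissociation-response list were higher in MR793 in each of the 5 pairs, against 9.39% of all genes, with a median difference of 0.93 log2. The heat shock gene Hspa1b differed by 3.75, the stress transcription factor gene Atf3 by 2.34 and the MAP kinase phosphatase gene Dusp1 by 1.89. The AP-1 subunit genes Fosb and Junb differed by 1.29 and 1.07. The summed level of the list, as log2, was 14.37 to 14.54 on the 5 MR793 arrays, 13.75 on the array that stood apart and 13.31 to 13.49 on the 6 MR820 arrays. Of 12 listed ERK target genes 8 were higher in all 5 pairs, with a median of 0.52 over the list. The others were Ccnd1, lower in MR793 in each pair (-0.40 to -0.31), and Etv5, Etv4 and Myc, with means of -0.22, -0.21 and -0.01. The lists share Egr1, Fos, Ier3 and Atf3. Of the 15 genes with the largest mean difference, 12, Hbegf included, are outside the dissociation-response list. Among them are Gsdmc2 (2.53), Slc15a2 (2.43), Hsd17b13 (1.93), Aldh1a1 (1.91) and the immediate early gene Egr2 (1.78). The list is short, so a gene outside it can still belong to the response. In their lowest pairs Gsdmc2 and Aldh1a1 differed by 0.74 and 0.85.

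Some markers of mature cell types also differed between the replicates, several of them unevenly over the 5 pairs. Of 12 enterocyte genes 3 were higher in MR793 in all 5 pairs, with a median of 0.30, and the lipid-handling genes Fabp1 and Apoa4 differed by 1.22 and 1.02 on average. Their pairs ran from 0.56 to 2.77 and from -0.27 to 2.85, both highest in Mex3a-negative Lgr5-low cells. Of 12 tuft cell genes 2 were higher in all 5 pairs (median 0.31), of 15 enteroendocrine genes 0 (median 0.30) and of 9 goblet cell genes 1 (median 0.15, highest mean 1.66). That highest mean, of Zg16, came from pairs at -0.01 to 6.02. The tuft cell gene Siglecf ran from -0.23 to 1.97 and the enteroendocrine gene Cck from -0.38 to 2.53, both highest in Mex3a-low Lgr5-low cells. The Paneth cell list had 1 of 6 in all 5 pairs and a median of -0.01, with Nupr1 at 1.08, and the immune cell list 1 of 9 and a median of -0.04, with Cd68 at 1.04. The part of the dissociation response and of the cell makeup in the difference of Hbegf and Errfi1 was not tested.

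**Figure D2:**
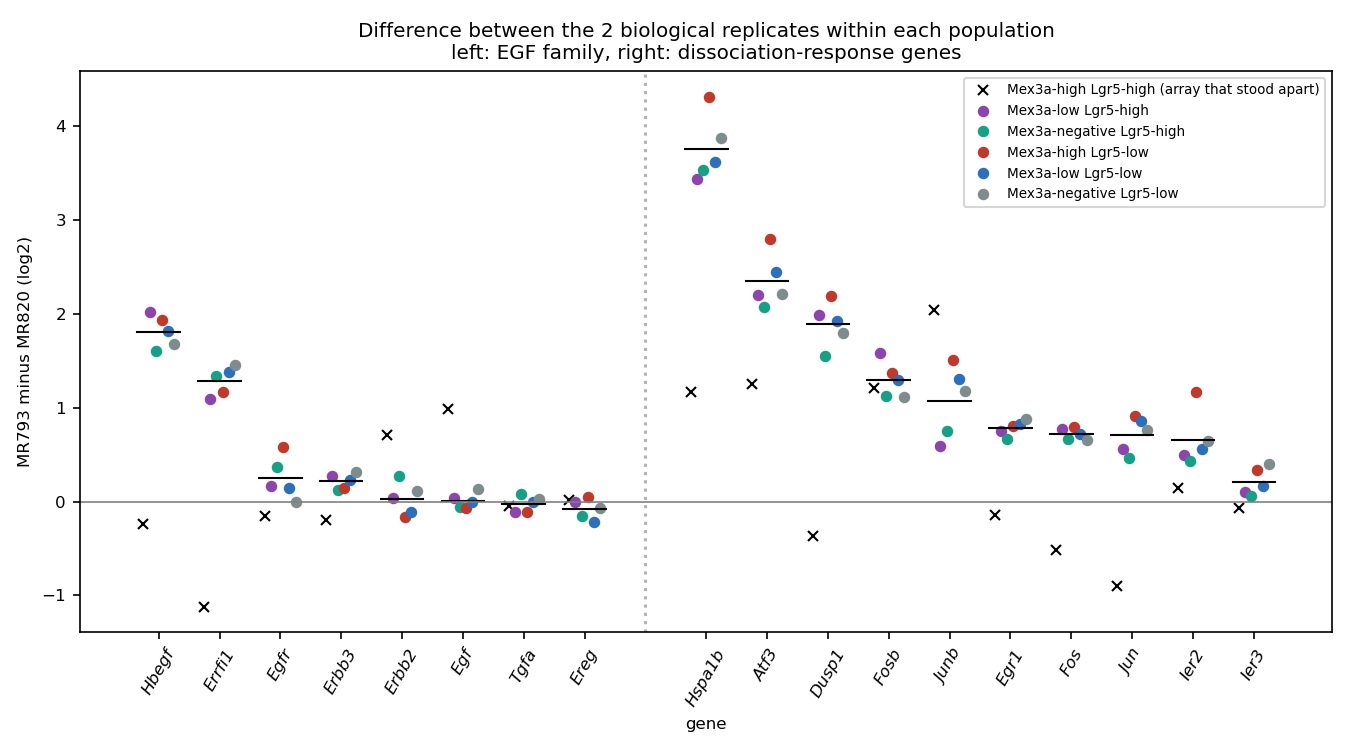
MR793 minus MR820 (log2) for the 8 EGF family genes, left of the dotted line, and the 10 measured dissociation-response genes, right of it, with 1 dot per population, a cross for the Mex3a-high Lgr5-high pair, which holds the array that stood apart, and a bar for the mean of the other 5 pairs. Hbegf (1.81) and Errfi1 (1.28) lie among the dissociation-response genes, and the other 6 EGF family genes lie between -0.08 and 0.25.

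The receptor genes and the other ligand genes differed far less between the replicates. Erbb3 was higher in MR793 in each of the 5 pairs, by 0.12 to 0.31 with a mean of 0.21. By the brightest probe set of each gene it is the third member, with Hbegf and Errfi1, with all 5 differences above 0. Its other probe set, 1452482_PM_at, gave a mean of 0.29. Egfr differed by -0.01 to 0.58 with a mean of 0.25. Its probe sets 1451530_PM_at (0.07 to 0.64, mean 0.43) and 1424932_PM_at (0.06 to 0.61, mean 0.36) were above 0 in all 5 pairs. Means of its remaining probe sets were 0.17 for 1454313_PM_at, 0.09 for 1435888_PM_at and -0.11 for 1432647_PM_at. Means were 0.03 for Erbb2, 0.01 for Egf, -0.03 for Tgfa and -0.08 for Ereg.

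The genes with the most similar profiles to Hbegf over the 12 arrays, among 1756 genes whose population means spanned at least 1 log2, were the immediate early transcription factor gene Egr2 (Pearson r = 0.976), Dusp1 (0.968) and Pdk4 (0.960), the gene of a pyruvate dehydrogenase kinase. Those of Errfi1 were Pmaip1 (0.953), the gene of the apoptosis protein NOXA, Dusp1 (0.940) and the transcription factor gene Klf10 (0.937). Dusp1 was also the closest to Egfr, at 0.794. Without the array that stood apart these correlations were 0.974, 0.966 and 0.960 for Hbegf, 0.935, 0.966 and 0.939 for Errfi1 and 0.765 for Egfr. All points share the same 2 preparations, which differ in these genes.

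Between the sorted populations none of the 8 genes passed the test. For Mex3a-high against Mex3a-negative cells limma called 0 of the 8 members at low Lgr5, where 1.73% of all genes were called, and 0 of 8 at high Lgr5, where 0% were called. Likewise 0 of 8 were called for Mex3a-high against Mex3a-low cells (0.889% of all genes at low and 0% at high Lgr5) and for Mex3a-low against Mex3a-negative cells (0.0468% and 0%). For Lgr5-high against Lgr5-low cells 0 of 8 were called over the Mex3a gates (1.38% of all genes), and 0 of 8 within Mex3a-high (1.37%), Mex3a-low (0.0468%) and Mex3a-negative cells (0%). The same count was 0 for the difference of the first 2 comparisons between the Lgr5 gates (0.398% of all genes) and for any difference among the 6 populations (1.25%). At these background rates a count of 0 among 8 genes says little. In the 11 comparisons 1 of the 88 values had an unadjusted p under 0.05, that of Erbb2 described with the receptors. With the replicate as a block and without the array that stood apart, 11 of the 88 were under 0.05: 7 of Hbegf, 2 of Erbb3, 1 of Tgfa, 1 of Errfi1 and 0 of Erbb2. Over all 17097 genes, the fit of 12 arrays without a block gave 79 to 2142 unadjusted p under 0.05 per comparison. The fit with the replicate block gave 1029 to 4129 in the comparisons between populations that kept 2 arrays. Neither count of members is therefore a result about the family. Taken singly, none of the 17 probe sets passed the test, with or without the array that stood apart.

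At low Lgr5, Hbegf was lower in Mex3a-high cells than in their Mex3a-negative counterparts within each replicate, and whether this passed the test depended on how the replicates were treated. The difference was -0.40 in MR793 and -0.66 in MR820, with a mean of -0.53 ± 0.95 (SE, limma adjusted p = 1.00, 95% interval -2.65 to 1.60). Without a block the replicate difference counts as error. With the replicate as a block and all 12 arrays the mean was the same and Hbegf was not called, with 2.03% of all genes called. With the replicate as a block and without the array that stood apart, an alternative added after the values were seen, the residual SD of Hbegf was 0.122, against 1.17 in the fit of 12 arrays without a block. Hbegf then differed by -0.53 ± 0.11 (limma adjusted p = 0.0100), in a fit that called 11.9% of all genes, and Hbegf was also the 1 member called for any difference among the 6 populations, with 11.1% of all genes. With the array strip as a further block it differed by -0.51 ± 0.13 (adjusted p = 0.0529), no longer past the threshold. With strip as the only block its direction turned to 0.41 and was not called. The MR793 pair shared strip 3 and the MR820 pair lay on strips 2 and 3.

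Mex3a-low Lgr5-low cells lay between, closer to Mex3a-negative cells. Hbegf differed by -0.41 ± 0.11 between Mex3a-high and Mex3a-low cells (limma adjusted p = 0.0602) and by -0.12 ± 0.11 between Mex3a-low and Mex3a-negative cells (adjusted p = 0.827) in the fit with the replicate block and without the array that stood apart. At high Lgr5 the same fit gave a Hbegf difference of 0.14 between Mex3a-high and Mex3a-negative cells, which rests on the MR820 array alone, and a difference between the Lgr5 gates of 0.67 (adjusted p = 0.103). In the Mex3a-high against Mex3a-negative comparison at low Lgr5, 12 of 12 tuft cell genes and 14 of 15 enteroendocrine genes were higher in Mex3a-high cells (limma adjusted p under 0.05 in the fit of 12 arrays without a block). The summed level of the tuft cell list was 14.28 to 14.36 in Mex3a-high and 9.14 to 9.17 in Mex3a-negative cells, as log2. That of the enteroendocrine list was 14.46 to 14.81 and 10.25 to 10.77 in the same order. Of the Paneth cell list 3 of 6 genes, Itln1, Defa21 and Mmp7, were called higher, with summed levels of 13.43 to 14.00 in Mex3a-high and 10.52 to 10.87 in Mex3a-negative cells. Of the immune cell list 2 of 9 genes, Ptprc and Lyz2, were called higher, with summed levels of 13.05 to 13.16 in Mex3a-high and 10.64 to 11.93 in Mex3a-negative cells. Without Lyz2, the gene of a lysozyme, the immune sums were 9.13 to 9.31 and 9.06 to 9.21 in the same order. Of the mesenchymal and endothelial list 1 of 10, Vim, was called higher, with summed levels of 9.71 to 9.84 and 8.86 to 8.87 in the same order. The dissociation-response list had 0 of 10 genes called and a median of -0.06. Enterocyte genes summed to 14.48 to 14.55 in Mex3a-high and 13.50 to 15.04 in Mex3a-negative cells. Goblet cell genes summed to 14.56 to 14.72 and 14.45 to 15.21 in the same order. The part of the cell makeup in the Hbegf difference was not tested.

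**Figure D3:**
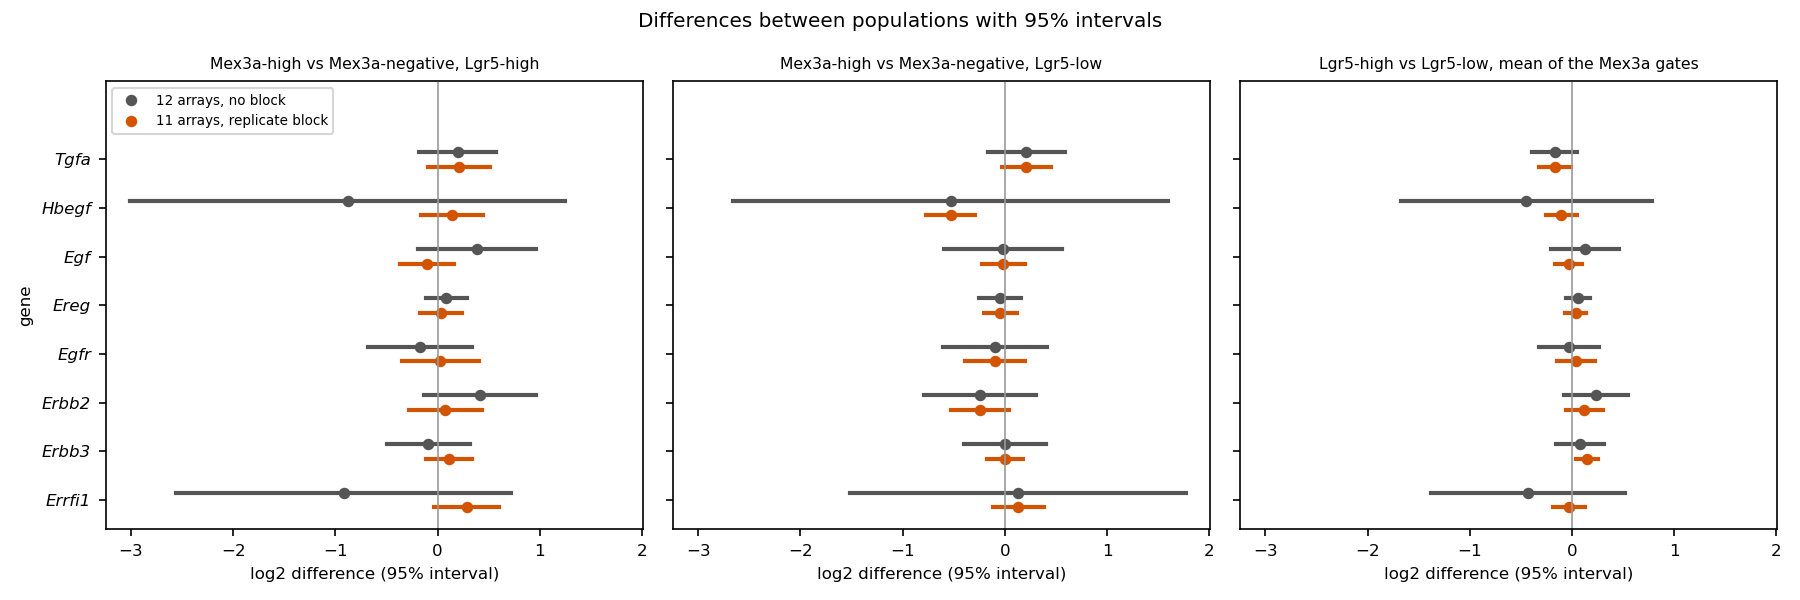
Log2 differences with 95% intervals of the 8 genes in 3 comparisons, from the fit of 12 arrays without a block (grey, upper) and from the fit of 11 arrays with the replicate as a block (orange, lower). The grey intervals of Hbegf and Errfi1 are the widest, and the orange interval of Hbegf in the middle panel, -0.77 to -0.29, lies below 0.

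Errfi1, which split by replicate like Hbegf, was called in no comparison between populations in any fit. It differed by 0.13 ± 0.73 (limma adjusted p = 1.00) between Mex3a-high and Mex3a-negative Lgr5-low cells, by -0.01 in MR793 and 0.27 in MR820. At high Lgr5 it differed by -0.92 ± 0.73 (adjusted p = 0.520), by -2.14 in MR793, which includes the array that stood apart, and by 0.31 in MR820. Within a replicate its levels spanned 0.31 over the 5 other MR793 arrays and 0.31 over the 6 MR820 arrays. Hbegf spanned 0.40 and 0.69 over the same arrays. In both replicates Hbegf was highest in Mex3a-negative Lgr5-low cells.

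Tgfa, the gene of transforming growth factor alpha, was highest in Mex3a-high Lgr5-low cells and repeated closely between replicates. It was at 7.75 in MR793 and 7.80 in MR820 in Mex3a-high, 7.66 and 7.78 in Mex3a-low and 7.62 and 7.53 in Mex3a-negative cells at high Lgr5. At low Lgr5 it was at 7.93 and 8.04 in Mex3a-high, 7.81 and 7.82 in Mex3a-low and 7.79 and 7.76 in Mex3a-negative cells. Both Mex3a-high Lgr5-low arrays lay above the other 10, and both Mex3a-negative Lgr5-high arrays lay below them. Between these extremes the order of the populations was Mex3a-low Lgr5-low, Mex3a-negative Lgr5-low, Mex3a-high Lgr5-high and Mex3a-low Lgr5-high by their means of 7.82, 7.78, 7.77 and 7.72, and the arrays of neighbours in this order overlapped except those of the Mex3a-low and Mex3a-negative Lgr5-low cells.

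No Tgfa difference passed the test. Between Mex3a-high and Mex3a-negative cells Tgfa differed by 0.21 ± 0.17 at low Lgr5 (0.14 in MR793, 0.28 in MR820, limma adjusted p = 1.00) and by 0.20 ± 0.17 at high Lgr5 (0.14 and 0.26, adjusted p = 0.530). Lgr5-high against Lgr5-low cells differed by -0.17 ± 0.10 (-0.17 in both replicates, adjusted p = 0.498), with a 95% interval of -0.39 to 0.05. In the fit with the replicate block and without the array that stood apart, the limma adjusted p was 0.160 for the Lgr5 comparison and 0.280 for Mex3a-high against Mex3a-negative cells at low Lgr5. The other Tgfa probe sets did not repeat the pattern: 1450421_PM_at differed by -0.12 and 1421943_PM_at by 0.05 between Mex3a-high and Mex3a-negative Lgr5-low cells. The closest profiles to Tgfa were those of Selenom (r = 0.905 over 12 arrays), Atp2a3 (0.903), which encodes a calcium pump, and Dpysl2 (0.895), which encodes a microtubule-associated protein, with 0.906, 0.903 and 0.895 over the 11 arrays without the one that stood apart.

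The ligand genes Egf and Ereg lay in narrow ranges at a low level. Egf, the gene of the family's founding ligand, was at 5.34 to 5.54 on 11 arrays and at 6.33 on the array that stood apart. Ereg, the epiregulin gene, was at 4.07 to 4.30 on the 12 arrays. Egf differed by 0.38 ± 0.26 between Mex3a-high and Mex3a-negative Lgr5-high cells (limma adjusted p = 0.505), by 0.90 in MR793 with the array that stood apart and by -0.14 in MR820. In the fit with the replicate block and without that array, the intervals of Egf in the 6 Mex3a comparisons lay between -0.44 and 0.28 and those of Ereg between -0.23 and 0.31.

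Of the receptor genes, Erbb2 reached the smallest p, through 1 array. Erbb2 was at 8.50 in MR793 and 7.79 in MR820 in Mex3a-high, 7.97 and 7.92 in Mex3a-low and 7.87 and 7.60 in Mex3a-negative cells at high Lgr5. At low Lgr5 it was at 7.52 and 7.69, 7.63 and 7.74, and 7.90 and 7.78 in the same order. The value of 8.50 is the only one above 7.97. Within Mex3a-high cells Erbb2 was higher in Lgr5-high than in Lgr5-low cells by 0.55 ± 0.24 (unadjusted p = 0.0499, limma adjusted p = 0.387), by 0.99 in MR793 and by 0.11 in MR820. With the replicate block and without the array that stood apart, the limma adjusted p of Erbb2 was 0.298 or more in each Mex3a and Lgr5 comparison.

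Egfr and Erbb3, both clearly detected by their brightest probe sets, showed small differences between the populations. Of the other Egfr probe sets, 1451530_PM_at averaged 8.81. The rest averaged 5.67 to 8.10, within the range of the genes of other organs. Egfr was at 8.78 in MR793 and 8.93 in MR820 in Mex3a-high, 9.24 and 9.08 in Mex3a-low and 9.20 and 8.84 in Mex3a-negative cells at high Lgr5. At low Lgr5 it was at 9.26 and 8.68, 9.15 and 9.01, and 9.06 and 9.07 in the same order. Both extremes of the 12 arrays, 9.26 and 8.68, belonged to 1 population, Mex3a-high Lgr5-low cells. The 10 Egfr differences between Mex3a gates or between Lgr5 gates ran from -0.31 to 0.14. Their intervals reached from -0.82 to 0.65, and from -0.48 to 0.45 with the replicate block and without the array that stood apart, so smaller changes could not be seen with these arrays.

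Erbb3 was at 10.26 in MR793 and 10.45 in MR820 in Mex3a-high, 10.66 and 10.39 in Mex3a-low and 10.51 and 10.39 in Mex3a-negative cells at high Lgr5, and at 10.48 and 10.34, 10.39 and 10.16, and 10.57 and 10.25 in the same order at low Lgr5. Lgr5-high against Lgr5-low cells differed by 0.08 ± 0.10 (limma adjusted p = 0.703). With the replicate block and without the array that stood apart this was 0.15 ± 0.05 (limma adjusted p = 0.0928). Both values are small, and neither passed the threshold.

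On the array that stood apart the family did not shift one way. Of the 17 probe sets 6 (35.3%) had their highest value there and 3 (17.6%) their lowest. Among all genes, counted by their brightest probe set only, the shares were 45.0% and 29.6%. Values at either extreme there are thus not particular to the family. Of the 16 genes of other organs 12 had their highest value there and 1 its lowest. The probe sets of 1 gene disagreed: Egfr probe sets 1454313_PM_at (9.41, against 7.79 to 8.16 on the other arrays) and 1432647_PM_at (6.65, against 5.43 to 5.81) were high there, and 1451530_PM_at was low (8.19, against 8.41 to 9.35). For Tgfa, 1450421_PM_at was high (7.67, against 6.66 to 7.11) and the probe set used was within the range of the others.

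**Figure D4:**
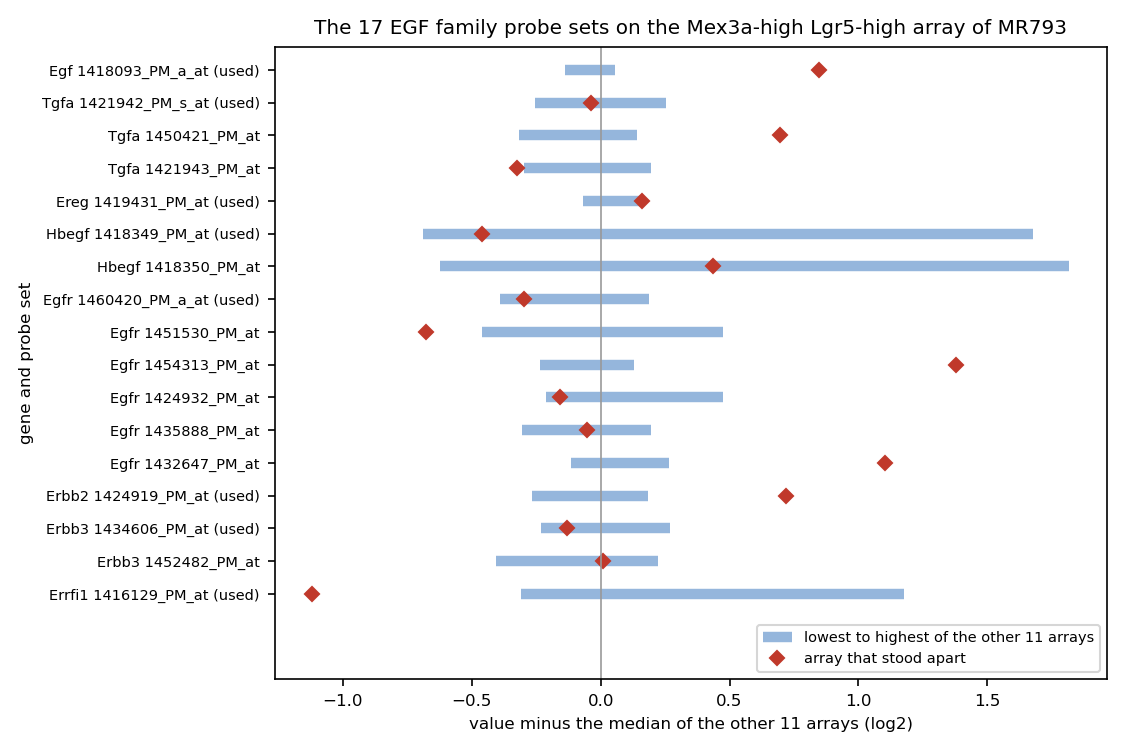
Value of each of the 17 probe sets on the array that stood apart (diamonds) and the range of the other 11 arrays (bars), both minus the median of those 11 arrays (log2). Of the 17 diamonds, 6 lie above their bar, led by Egfr 1454313_PM_at (1.38), and 3 below it, led by Errfi1 (-1.12).

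Further genes of the pathway, 58 measured in 6 lists, were rarely called. The lists were other ligands and receptors (7 measured), ligand shedding (5), negative regulators (15), the Ras-MAPK cascade (11), the PI3K-Akt branch (8) and ERK target genes (12). Limma called 1 of the 58 (1.72%) in 1 of the 11 comparisons, in which 1.38% of all genes were called: Myc, the proliferation-driving transcription factor gene, was 0.54 ± 0.10 higher in Lgr5-high than in Lgr5-low cells (0.64 in MR793, 0.43 in MR820, adjusted p = 0.0434). Its level averaged 10.16 ± 0.18, 10.18 ± 0.06 and 10.13 ± 0.04 (SD, n = 2) in Mex3a-high, Mex3a-low and Mex3a-negative Lgr5-high cells, and 9.49 ± 0.17, 9.71 ± 0.12 and 9.66 ± 0.21 in the Lgr5-low populations in the same order. The medians of the 6 lists in this comparison ran from -0.16 to 0.16, with 0.01 for the EGF family and 0.04 for all genes.

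Without the array that stood apart, more of the 58 pathway genes were called, at shares near those of all genes, so the counts are no result about the lists. For Lgr5-high against Lgr5-low cells 4 of 58 (6.90%) were higher, with 5.12% of all genes called: Lrig1, whose protein restrains ErbB receptors, by 0.69 ± 0.12 (limma adjusted p = 0.0131), the adaptor gene Gab1 by 0.41 ± 0.08 (0.0213), the PI3K subunit gene Pik3r1 by 0.34 ± 0.07 (0.0213) and Myc by 0.50 ± 0.08 (0.0109). For Mex3a-high against Mex3a-negative Lgr5-low cells 3 of 58 (5.17%) were higher, with 5.29% of all genes called. These were Socs5, which promotes EGF receptor degradation, by 0.98 ± 0.23, Dusp6, the ERK phosphatase gene, by 0.96 ± 0.19, and Rhbdf1, which helps mature the shedding protease ADAM17, by 0.72 ± 0.17, with adjusted p = 0.0400, 0.0203 and 0.0400. Nrg4, a neuregulin gene whose product binds ERBB4, was higher in Mex3a-high Lgr5-low cells than in Mex3a-low ones, by 0.57 ± 0.12 (limma adjusted p = 0.0371), as 1 of 58 (1.72%), with 2.46% of all genes called. None was called lower in these 3 comparisons, and with all 12 arrays only Myc was called. Tuft cell and enteroendocrine genes moved between Mex3a-high and Mex3a-negative Lgr5-low cells, as given with Hbegf. The summed level of the tuft cell list was 14.28 to 14.36 in Mex3a-high and 11.27 to 12.45 in Mex3a-low Lgr5-low cells. That of the enteroendocrine list was 14.46 to 14.81 and 12.86 to 13.93 in the same order. Between the Lgr5 gates 10 of 12 tuft cell and 10 of 15 enteroendocrine genes were called lower in Lgr5-high cells with all 12 arrays. Their part in these differences was not tested.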

How the data were processed

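Levels were measured on 12 Affymetrix arrays. The deposited values are levels on the log2 scale for each probe set, made by the authors with RMA (submitters' processing notes, per the labels), whose version is not given in the sources used here. They were used as deposited. Of 45141 probe sets, 28898 are annotated to 1 gene. A gene was represented by its brightest such probe set (mean of all arrays), giving 17097 genes, and the other EGF family probe sets are given beside it. Population means were fitted with limma 3.58.1 (R 4.3.3; eBayes with a mean-variance trend, no block), with p-values adjusted by the Benjamini-Hochberg method over all genes and a threshold of 0.05. The script was tested on simulated data.

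The 9 genes, the pathway and marker lists and the tests were chosen with earlier results of these data known. All 9 genes are named in every comparison, and listed genes are named where called, up to 4 with the smallest p. Dissociation-response genes were named with their values in view. The labels give 1 biological replicate name to all populations of a preparation, and this pairs them. Deviations of the replicates correlated over 0.1 in 14 of 15 pairs of populations (-0.12 to 0.57), and in 10 of 10 without the array that stood apart (0.37 to 0.57). The fit without a block does not use this pairing. Alternatives were replicate and strip blocks, other normalizations, probe set rules and filters, and leaving out each array. Promoter windows come from RefSeq, GRCm38.p6. Figures were drawn with matplotlib 3.10.9.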

Additional observations from a re-analysis of the deposited data

Results flagged for a closer look

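Within each Lgr5 gate, the gap between an extreme array and its nearest neighbour was set against the range of the 6 arrays for each of the 17 probe sets (34 tests, at Dixon's critical value for 95%). Chance flags about 1 in 20, and 5 were found. In the Lgr5-high gate 4 of them were values of the Mex3a-high array of MR793, which stood apart: Egf at 6.33, Tgfa probe set 1450421_PM_at at 7.67, and the Egfr probe sets 1454313_PM_at at 9.41 and 1432647_PM_at at 6.65. In the Lgr5-low gate the Mex3a-low array of MR793 was at 6.58 for Egfr probe set 1424932_PM_at, above 5.98 to 6.20 on the other 5 arrays. That probe set was also at 6.59 and 6.67 in Mex3a-low and Mex3a-negative Lgr5-high cells of MR793.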

How the results depend on the processing

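With n = 2 per population, no block and a replicate difference of over 1 log2, the fit could not resolve changes of Hbegf under about 2.13 log2 or of Errfi1 under about 1.64, the widths of their intervals to either side. The count of EGF family genes called was 0 in each of the 11 comparisons and in the test of any difference, and stayed 0 under the replicate block with all 12 arrays, the strip block, both blocks, another normalization, centring, other probe set rules, the level filter, no trend, array weights and fits of 1 Lgr5 gate. Leaving out 1 array in turn gave 0 to 2. The 2 were Egf and Erbb2, called in 6 tests when the MR820 array of Mex3a-high Lgr5-high cells was left out. The array that stood apart is then the lone sample of its population and is assumed to vary like the others. Those fits called 8315 to 10870 genes. With the replicate block and without the array that stood apart, an alternative chosen after seeing the data, the count was 1, Hbegf, in Mex3a-high against Mex3a-negative Lgr5-low cells and in the test of any difference. With the strip added as a block it was 0. Over 26 settings the adjusted p of this Hbegf difference ran from 0.0100 to 1.00 and its value from -1.49 to 0.44, since leaving out 1 array of the pair unbalances the replicates. Of 2234 single-gene values under alternatives, 2058 moved by no more than the spread between replicates. Another 165 moved further without passing the threshold, and 11 passed it. Replicate blocks changed no other call among the 8 genes. The cause was not tested.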
